A study of Mus musculus with 25 samples.

Results

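The genes described here mark the mesothelium, the thin epithelial sheet that covers the organs of the body cavities. They were the 9 genes Msln, Upk3b, Upk1b, Wt1, Krt8, Krt18, Krt19, Lrrn4 and Gpm6a, chosen as known mesothelial markers and found by the gene name of their probes on the array. They had 12 of the 40561 probes in the deposited value table, out of 26420 gene names in all. Their levels were measured in the white fat beside the epididymis (perigonadal, pgWAT) of male C57BL6/J mice, with 1 single-colour array in each of 25 samples. All mice were fasted for 24 h and then refed for 18 h with food and water containing 20% glucose. In 1 line, exon 1b of Mlxipl had been deleted in the whole body with CRISPR/Cas9, which removes ChREBPβ (ChREBPβ-deficient, 6 arrays of ChREBPβ KO, and 7 of its ChREBPβ WT). The other line was Mlxipl-null and lacked ChREBPα and ChREBPβ (5 arrays of total ChREBP KO and 7 of total ChREBP WT). The age of these mice is not given in the sources used here. Each KO was compared with the WT of its line, and the WT of both lines with each other.

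Visceral fat lies in the body cavity and wears a mesothelial cover, so a piece of pgWAT brings its surface cells with it, next to adipocytes, progenitors, macrophages and vessels. Mesothelial cells are epithelial in form, carry keratins and uroplakins, and also express genes of mesenchymal origin. Msln codes for mesothelin, a surface glycoprotein held by a lipid anchor. Upk3b and Upk1b code for uroplakins, membrane proteins first described in the lining of the bladder. Lrrn4 codes for a membrane protein with leucine-rich repeats, and Gpm6a for a membrane glycoprotein of the proteolipid family. Wt1 is a transcription factor of the mesothelium that visceral fat progenitors can also express. Krt8 and Krt18 code for the partner keratins of simple epithelia, hepatocytes among them, and Krt19 for a small keratin of simple and ductal epithelia. In whole tissue, fewer cells of a type and less RNA per cell cannot be told apart.

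The sequence before the start of a gene is shown for members that moved together across arrays, with the 6 letters GGAATG, the core bound by TEAD factors, in capitals on either strand (CATTCC on the other). Windows of 250 bases before and 50 after a start were available for 5 of the 9 genes from RefSeq (GRCm38.p6). Those of Lrrn4 (chr2:132880813-132881112, minus strand), Upk3b (chr5:136038246-136038545, plus strand) and the upstream start of Gpm6a (chr8:54779184-54779483, plus strand) come first, and those of Krt8 (chr15:102004293-102004592, minus strand) and Krt18 (chr15:102027966-102028265, plus strand) follow.
Lrrn4: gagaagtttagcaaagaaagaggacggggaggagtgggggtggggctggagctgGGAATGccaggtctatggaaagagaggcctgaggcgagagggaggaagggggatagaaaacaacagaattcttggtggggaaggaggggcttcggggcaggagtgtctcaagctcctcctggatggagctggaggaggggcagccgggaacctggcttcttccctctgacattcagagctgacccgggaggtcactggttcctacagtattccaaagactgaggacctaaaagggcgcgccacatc
Upk3b: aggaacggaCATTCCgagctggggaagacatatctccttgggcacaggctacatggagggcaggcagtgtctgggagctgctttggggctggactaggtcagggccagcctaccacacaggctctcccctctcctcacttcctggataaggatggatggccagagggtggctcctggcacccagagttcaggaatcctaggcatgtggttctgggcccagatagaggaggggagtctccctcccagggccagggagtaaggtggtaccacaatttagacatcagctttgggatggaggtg
Gpm6a: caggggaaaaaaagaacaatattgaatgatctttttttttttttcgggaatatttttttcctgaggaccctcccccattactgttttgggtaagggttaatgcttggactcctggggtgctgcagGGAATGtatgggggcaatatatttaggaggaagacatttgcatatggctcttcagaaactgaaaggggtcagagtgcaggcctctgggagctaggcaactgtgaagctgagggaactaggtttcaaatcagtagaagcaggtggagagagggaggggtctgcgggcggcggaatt
Krt8: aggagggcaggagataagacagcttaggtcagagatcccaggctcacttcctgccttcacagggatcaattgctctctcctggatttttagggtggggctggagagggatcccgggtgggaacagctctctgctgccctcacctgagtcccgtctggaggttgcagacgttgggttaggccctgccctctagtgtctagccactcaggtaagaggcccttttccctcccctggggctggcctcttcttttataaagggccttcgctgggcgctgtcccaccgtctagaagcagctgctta
Krt18: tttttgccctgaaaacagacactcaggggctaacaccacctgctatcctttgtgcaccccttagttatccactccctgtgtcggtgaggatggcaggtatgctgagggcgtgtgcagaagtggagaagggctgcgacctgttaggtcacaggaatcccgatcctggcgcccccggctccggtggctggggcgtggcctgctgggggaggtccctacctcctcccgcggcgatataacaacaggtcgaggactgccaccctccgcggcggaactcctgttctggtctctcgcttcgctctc

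The windows of Lrrn4, Upk3b and Gpm6a shown here each held 1 GGAATG, starting at base -196, -241 and -125 relative to the start, while those of Krt8 and Krt18 and the second Gpm6a start held 0. Of the 32851 mouse windows of this length, 14.7% held it. The E box CACGTG, whose paired form binds ChREBP, was in 0 of these 6 windows and in 7.15% of all windows. The search covered 10 motifs on both strands. The others were GGGCGG (35.7% of all windows, here 1 in Gpm6a), TATAAA (13.6%, here 2 in Krt8 and 1 at the second Gpm6a start), GATAAG (7.44%, here in Upk3b and Krt8), AGGTCA (16.3%, here in Lrrn4, Upk3b, Krt8 and Krt18), TGANTCA (7.81%, none here), CCAAT (37.4%, none here), GCGGGGGCG (2.91%, none here) and CANNTG (72.3%, which contains CACGTG). The 2 TATAAA matches in Krt8 overlap, on opposite strands of 1 stretch. These letters describe the windows, and a match is not a bound site.

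Each member was read from its brightest probe, and all 12 probes were well above background on 25 of 25 arrays. The probes lay on mm9 at chromosome 17, 25885569 to 25885628 (Msln), chromosome 5, 136520522 to 136520581 (Upk3b), chromosome 16, 38773592 to 38773651 (Upk1b), chromosome 2, 105013656 to 105013715 (Wt1), chromosome 15, 101827138 to 101827197 (Krt8), chromosome 15, 101862341 to 101862400 (Krt18), chromosome 11, 100002392 to 100002451 (Krt19), chromosome 2, 132694490 to 132694549 (Lrrn4) and chromosome 8, 56145539 to 56145598 (Gpm6a). No gene model of mm9 was used here, so the exon of a probe is not stated. None of them shared a run of 20 bases with a probe of another gene. The Upk3b probe lay 0.907 Mb from the brightest probe of Mlxipl, the targeted gene.

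Median raw spot intensity ran from 84 to 127 and median background from 15 to 22 over the arrays, and r between arrays of 1 group from 0.970 to 0.997. Within each line, the targeted gene followed the labels. Total ChREBP WT averaged 15.98 ± 0.16 (SD, n = 7) for the log2 level of Mlxipl, and its KO 14.21 ± 0.08 (SD, n = 5), a fitted difference of -1.77 (limma adjusted p 1.11e-08). ChREBPβ WT averaged 15.07 ± 0.27 (SD, n = 7) and its KO 14.34 ± 0.31 (SD, n = 6), without overlap, at -0.74 (limma adjusted p 0.116, not past the threshold). The wild types differed too, with Mlxipl higher by 0.91 in total ChREBP WT (limma adjusted p 3.99e-05). Genes of other organs differed between arrays, and their values stand beside the keratin results.

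The mesothelial markers varied from sample to sample far more than most transcripts did. Within groups, the SD of the 9 members ran from 0.42 log2 units (Wt1) to 0.94 (Krt18), and between 91.1% and 97.5% of all probes had a lower SD. From the lowest to the highest of the 25 arrays the Msln signal spanned 3.68-fold, that of Upk3b 4.32-fold, Wt1 3.98-fold, Krt19 4.58-fold, Krt8 9.42-fold and Krt18 12.2-fold. These spans are differences of 1 probe between arrays, in normalised signal that was not corrected for background.

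**Figure D1:**
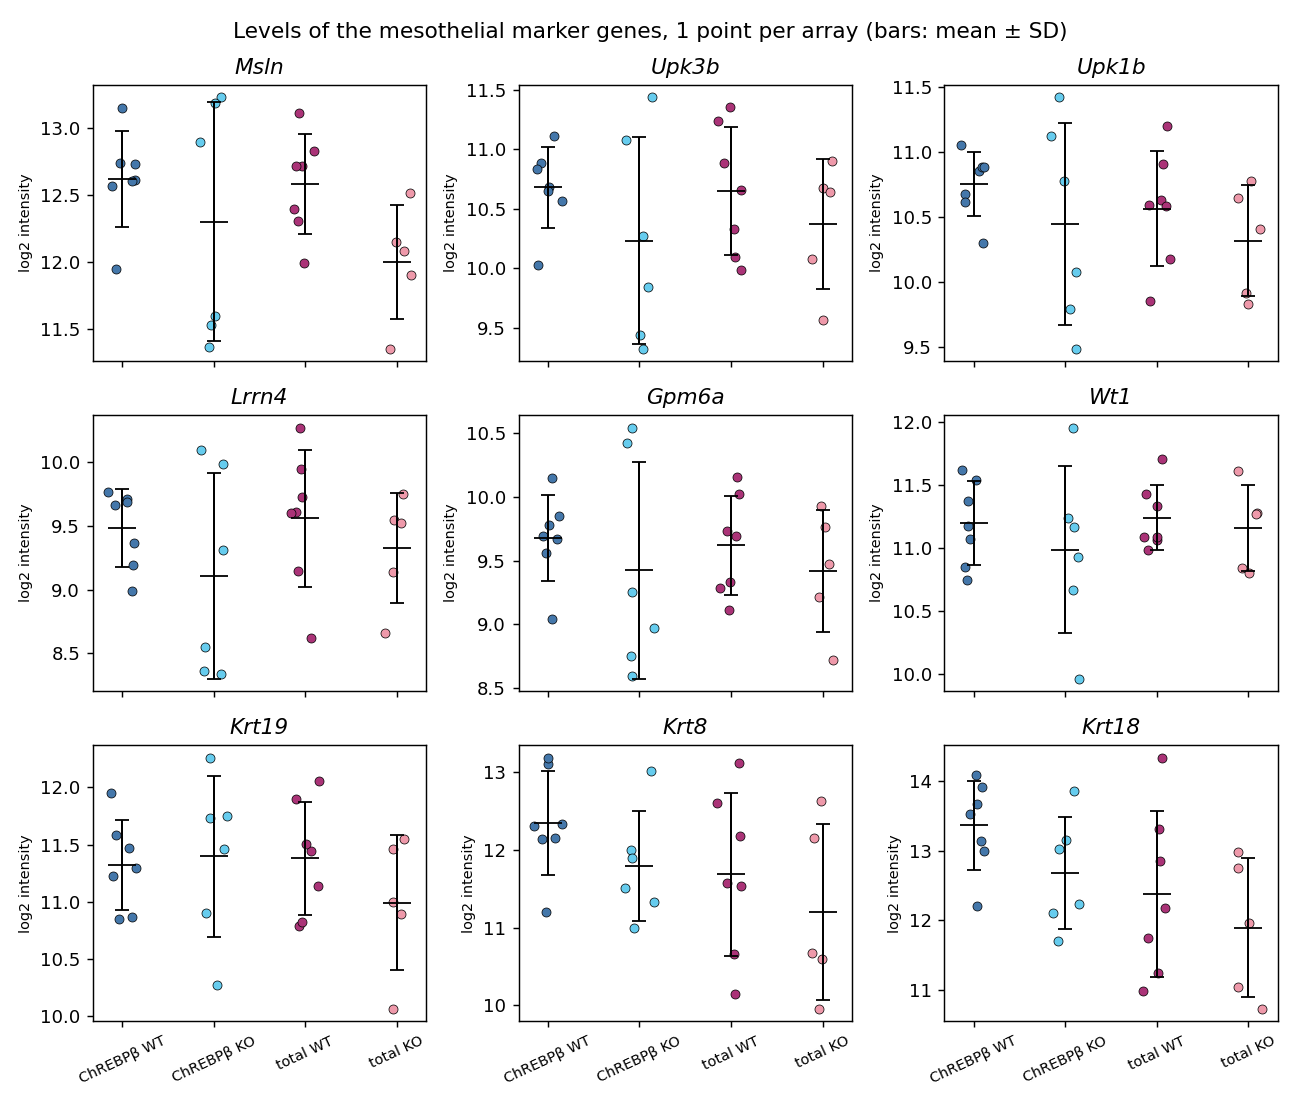
Log2 intensity (vertical axis) of each member in the 4 groups (horizontal axis), 1 point per array, with the mean ± SD as bars. The groups overlapped for all 9 genes, and the 6 ChREBPβ KO arrays were spread widest for all members but Krt8 and Krt18.

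Msln illustrates the first pattern. Its log2 level in ChREBPβ WT was 11.94 at the lowest, 12.62 at the median and 13.15 at the highest array, and in ChREBPβ KO it was 11.36, 12.25 and 13.23. In total ChREBP WT these levels were 11.99, 12.71 and 13.11, and the 5 total ChREBP KO arrays read 12.51, 11.35, 12.15, 12.08 and 11.90. The ChREBPβ KO arrays fell at both ends of the whole range, with replicates 2, 4 and 8 at 11.36 to 11.60 and replicates 3, 5 and 6 at 12.89 to 13.23, and none between. Their SD was 0.89 against 0.36 in ChREBPβ WT and 0.37 (WT) and 0.43 (KO) in the total ChREBP line. The low arrays came from wash batches 1 and 4 and the high arrays from wash batches 2, 3 and 4.

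The uroplakins followed Msln, though not in every array. ChREBPβ KO replicate 3, among the high arrays for Msln, read 10.27 for Upk3b, near the group mean of 10.23. Upk3b read 10.03, 10.68 and 11.11 (lowest, median and highest log2 level) in ChREBPβ WT, 9.32, 10.06 and 11.43 in ChREBPβ KO, and 9.99, 10.66 and 11.35 in total ChREBP WT. Its 5 total ChREBP KO arrays read 10.90, 9.56, 10.64, 10.67 and 10.07. Its lowest array was ChREBPβ KO replicate 2 and its highest ChREBPβ KO replicate 5, as was also the case for Upk1b and Wt1. For Upk1b, the ChREBPβ line averaged 10.75 ± 0.25 (WT, SD, n = 7) and 10.44 ± 0.77 (KO, SD, n = 6), and the total ChREBP line 10.56 ± 0.44 (WT, SD, n = 7) and 10.31 ± 0.43 (KO, SD, n = 5). The second Upk1b probe, dimmer at a mean of 8.90, followed the first with r = 0.99 after removal of group means.

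The membrane genes Lrrn4 and Gpm6a had the same wide ChREBPβ KO group. Lrrn4 was at 9.48 ± 0.30 (WT, SD, n = 7) and 9.11 ± 0.81 (KO, SD, n = 6) in the ChREBPβ line and 9.56 ± 0.54 (WT, SD, n = 7) and 9.32 ± 0.43 (KO, SD, n = 5) in the total ChREBP line. Gpm6a spanned 9.04 to 10.15 (WT) and 8.59 to 10.55 (KO) in the ChREBPβ line, and 9.12 to 10.16 (WT) and 8.72 to 9.93 (KO) in the total ChREBP line. Wt1 was the steadiest member, at 11.19 ± 0.33 (WT, SD, n = 7) and 10.98 ± 0.66 (KO, SD, n = 6) in the ChREBPβ line and 11.24 ± 0.26 (WT, SD, n = 7) and 11.16 ± 0.34 (KO, SD, n = 5) in the total ChREBP line. Its second probe, at another transcript, followed the first with r = 0.70.

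The keratins were highest in samples other than those of the first 6 genes, while total ChREBP KO replicate 2 was the lowest array for Krt8, Krt18 and Krt19 as it was for Msln. Krt18 read 12.21, 13.53 and 14.09 (lowest, median and highest log2 level) in ChREBPβ WT, 11.69, 12.63 and 13.86 in ChREBPβ KO, and 10.98, 12.18 and 14.34 in total ChREBP WT. Its 5 total ChREBP KO arrays read 12.75, 10.73, 11.04, 12.97 and 11.96. The highest Krt18 array was total ChREBP WT replicate 2. Krt8 had means of 12.35 ± 0.67 (SD, n = 7), 11.79 ± 0.71 (SD, n = 6), 11.69 ± 1.05 (SD, n = 7) and 11.20 ± 1.14 (SD, n = 5) in WT and KO of the ChREBPβ line and then of the total ChREBP line, and the r between its probes was 0.997. Krt19 was at 11.32 ± 0.39 (SD, n = 7), 11.40 ± 0.71 (SD, n = 6), 11.38 ± 0.49 (SD, n = 7) and 10.99 ± 0.59 (SD, n = 5) in the same order, and its highest array, ChREBPβ KO replicate 2, was the lowest one for Upk3b.

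**Figure D2:**
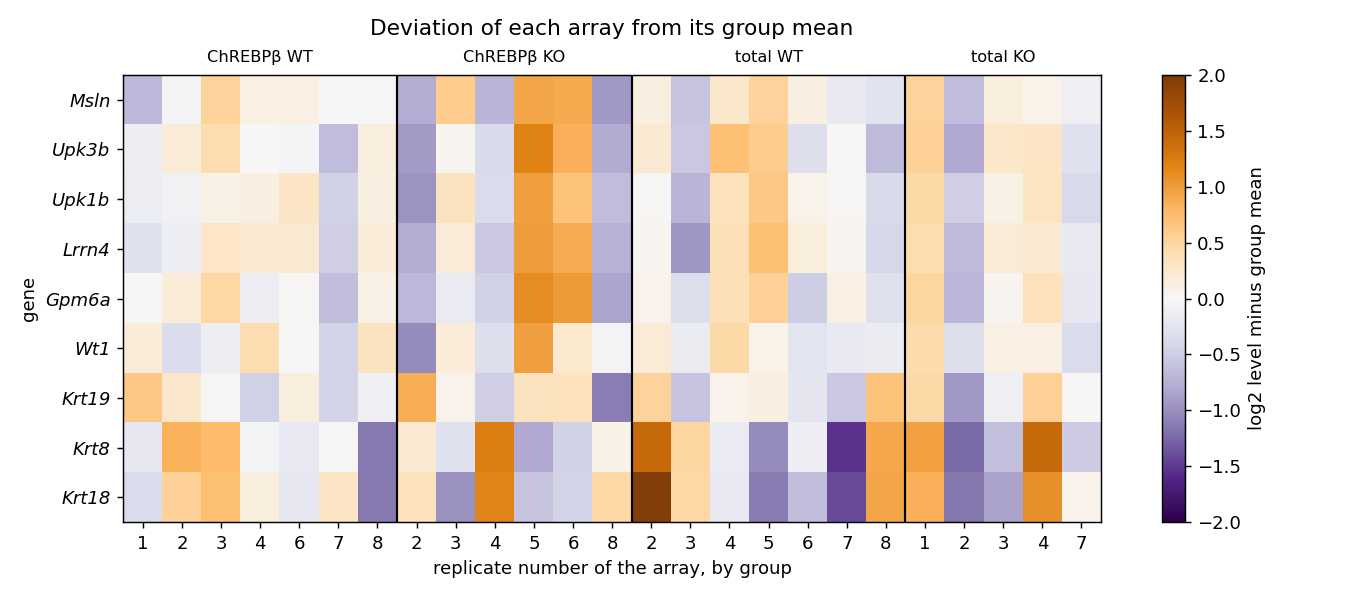
Deviation of each array's log2 level from its group mean (colour, log2 units) for the 9 members (vertical axis) and the 25 arrays by group and replicate number (horizontal axis). ChREBPβ KO replicates 2, 4 and 8 were low and 5 and 6 high from Msln to Gpm6a, Wt1 of replicate 8 lay near its group mean, and Krt8 and Krt18 were highest in other arrays, among them total ChREBP WT replicate 2.

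Across samples, the members split into genes that rose and fell together and keratins that did not follow them. Over the 25 arrays, after removal of group means, 16 of the 36 pairs of members were correlated at an adjusted permutation p under 0.05. They were the 15 pairs among Msln, Upk3b, Upk1b, Lrrn4, Gpm6a and Wt1, and the pair of Krt8 and Krt18. The closest pair was Upk1b and Lrrn4 (Pearson r 0.97, Spearman rho 0.97), followed by Upk3b and Gpm6a (0.96 and 0.96), and the weakest of the 15 was Msln and Wt1 (0.62 and 0.62, adjusted permutation p 0.0202). The smallest unadjusted p that 100000 permutations can give, 1e-05, was reached by 9 of the 16 pairs, Krt8 and Krt18 (0.94 and 0.96) among them, where the adjusted permutation p was 4e-05. The other 20 pairs had r from -0.30 to 0.47 and an adjusted permutation p of 0.116 to 0.706.

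**Figure D3:**
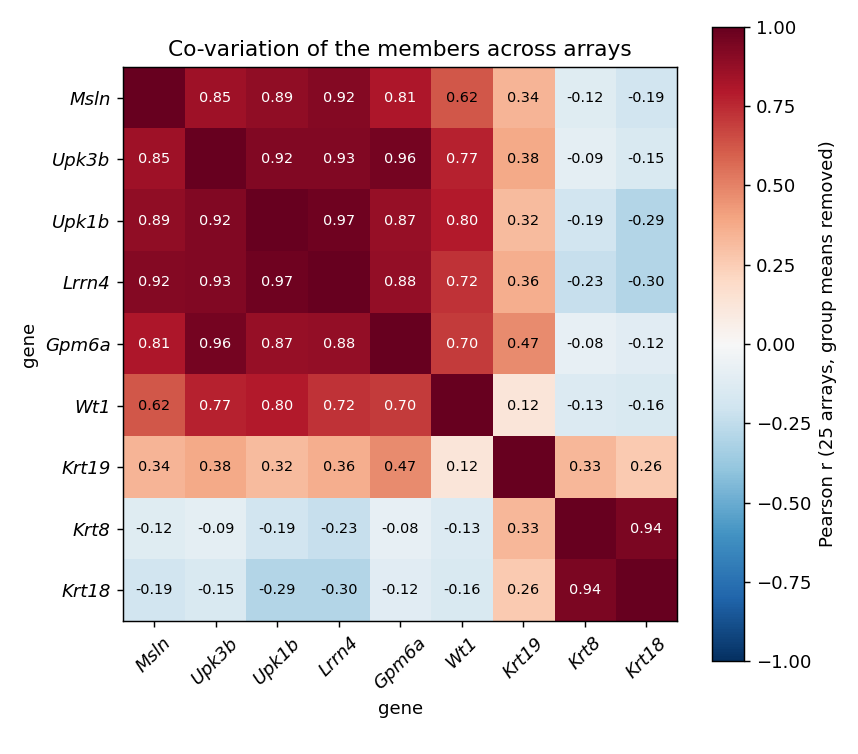
Pearson r of each pair of members (rows and columns) over 25 arrays after removal of group means, by colour and number. The pairs among Msln, Upk3b, Upk1b, Lrrn4, Gpm6a and Wt1 had r from 0.62 to 0.97, Krt8 and Krt18 had 0.94, and the pairs of these keratins with the other genes ran from -0.30 to 0.33.

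The co-variation of the first 6 genes was looked at in smaller sets of arrays. Without the 2 arrays farthest from the median, the r of their 15 pairs ran from 0.57 to 0.97. Within wash batches 1, 3 and 4 it ran from 0.68 to 0.98, 0.59 to 0.98 and 0.65 to 0.99, and wash batch 2 held too few arrays. Because the ChREBPβ KO arrays lay apart from each other, the pairs were also computed without them, where r ran from 0.37 (Msln and Wt1, adjusted permutation p 0.258, no longer past the threshold) to 0.96. Within the 7 ChREBPβ WT arrays r ran from -0.18 (Msln and Wt1) to 0.98 (Upk3b and Gpm6a). Within the 6 ChREBPβ KO arrays it ran from 0.77 to 0.99, and within the 7 total ChREBP WT arrays from 0.49 to 0.99. Krt8 and Krt18 had r = 0.95, 0.89 and 0.97 in those groups. Both keratins ran opposite to the first 6 genes within the 6 ChREBPβ KO arrays, with r of -0.85 (Msln and Krt18) to -0.61 (Wt1 and Krt18). Without those arrays the same pairs had r of -0.11 (Krt18 and Lrrn4) to 0.21 (Krt8 and Gpm6a). Within total ChREBP WT they ran from -0.51 (Krt8 and Upk1b) to 0.20 (Krt18 and Wt1). Within ChREBPβ WT they ran from -0.62 (Krt18 and Wt1) to 0.45 (Krt18 and Msln).

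Krt19 lay between both sets, with r of 0.12 to 0.47 with the first 6 genes, 0.33 with Krt8 and 0.26 with Krt18. A single array bore on this. Without ChREBPβ KO replicate 2, the pairs of Krt19 with Msln (0.54), Upk3b (0.60), Upk1b (0.59), Lrrn4 (0.56) and Gpm6a (0.66) passed the threshold, with adjusted permutation p of 0.00578 to 0.0344, and 21 pairs passed in all.

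Other genes known from mesothelium followed the same division. A list of 18 such genes had 16 in the value table, among them Bnc1, a zinc finger factor, Krt7, a keratin, Aldh1a2, a retinoic acid synthesising enzyme, and Nkain4, Crb2, Ildr2, Pdpn and Rspo1. The mean level of the list followed Upk3b (r 0.96, rho 0.94), Upk1b (0.96 and 0.95), Lrrn4 (0.95 and 0.96), Gpm6a (0.92 and 0.89), Msln (0.91 and 0.89) and Wt1 (0.83 and 0.80). The adjusted permutation p of these 6 relations was 0.000167 over the 117 relations of members and lists, and r without the 2 farthest arrays was 0.75 (Wt1) to 0.94. The r of the same list was -0.13 with Krt8, -0.19 with Krt18 and 0.36 with Krt19. Of the 16 genes, 12 had r of at least 0.7 with Upk3b, 12 with Upk1b, 12 with Gpm6a, 11 with Lrrn4, 10 with Msln, 9 with Wt1 and 0 with each keratin. Bnc1 followed Upk3b with r = 0.94, Krt7 followed Msln with 0.89 and Crb2 followed Wt1 with 0.90, whereas Bcam had r of 0.02 to 0.32 with the first 6 genes.

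**Figure D4:**
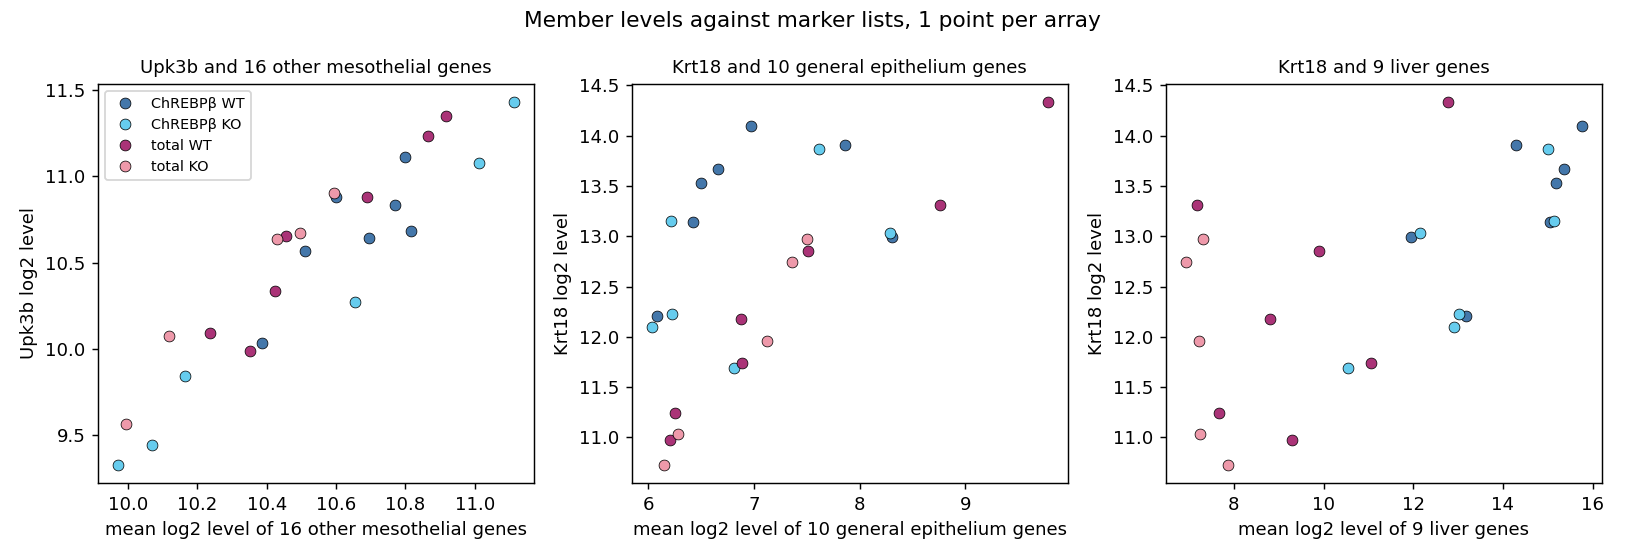
Log2 level of a member (vertical axes) against the mean log2 level of a marker list (horizontal axes), 1 point per array coloured by group. Upk3b was high where the 16 other mesothelial genes were high, Krt18 was highest where the general epithelium list was highest (total ChREBP WT replicate 2), and liver genes lay higher in the ChREBPβ line than in total ChREBP KO.

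The first 6 genes also moved with progenitor markers of the stroma, and some of them with macrophage markers. The mean of 10 progenitor genes, which included Pdgfra, Dpp4 and collagens, had r of 0.80 with Upk1b, Lrrn4 and Gpm6a, 0.73 with Upk3b, 0.68 with Msln and 0.60 with Wt1 (adjusted permutation p 0.00175 to 0.0436). Spearman rho for Msln (0.51) and Wt1 (0.49) did not pass, with adjusted permutation p of 0.152 and 0.108. Without the 2 farthest arrays the progenitor r ran from 0.46 (Wt1) to 0.71 (Upk1b). The mean of 7 macrophage genes had r of 0.57 to 0.59 with Upk3b, Upk1b, Lrrn4 and Gpm6a (adjusted permutation p 0.0149 to 0.0151). With Msln (0.45) and Wt1 (0.34) it did not pass, at adjusted permutation p of 0.088 and 0.252. The progenitor list averaged 13.19 ± 0.10 (SD, n = 7), 13.24 ± 0.27 (SD, n = 6), 13.20 ± 0.15 (SD, n = 7) and 13.06 ± 0.16 (SD, n = 5) in WT and KO of the ChREBPβ line and then of the total ChREBP line.

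Krt8 and Krt18 moved with another set of markers. The mean of 10 general epithelium genes (of 11 listed), which included Epcam, Cdh1 and claudins, had r = 0.76 with each of them (rho 0.79 and 0.77, adjusted permutation p 0.000439 and 0.0013), and 0.58 with Krt19 (adjusted permutation p 0.0187, but 0.0628 for rho). It was 0.73 and 0.77 within wash batch 1, 0.58 and 0.52 within wash batch 3 and 0.90 and 0.90 within wash batch 4 for Krt8 and Krt18. The mean of 9 adipocyte genes had r of -0.64 with Krt8 and -0.74 with Krt18 (adjusted permutation p 0.00175 and 0.000167), and that of 7 endothelial genes -0.54 and -0.55 (0.0269 and 0.0161, and 0.0659 and 0.0281 for rho). Markers of other organs moved with both keratins too. The mean of 4 testis genes had r of 0.60 with Krt8 and 0.56 with Krt18 (adjusted permutation p 0.0128 and 0.0151), and 0.53 and 0.49 without the 2 farthest arrays. Testis genes were far higher on 3 arrays than on the rest. All 3 were the highest of their group for the brightest Krt8 probe, and 2 of them (total ChREBP WT replicate 2 and total ChREBP KO replicate 4) for Krt18. On the second Krt8 probe, the testis-high ChREBPβ WT replicate 2 (12.92) lay below replicate 3 of its group (13.02). For Krt8 and Krt18, the testis r was 0.63 and 0.58 within wash batch 1. It was -0.05 and -0.08 within wash batch 3 and 0.73 and 0.79 within wash batch 4. The mean of 6 kidney genes, high on ChREBPβ WT replicates 1, 3 and 7, had r of 0.40 and 0.41 (0.0436 and 0.0338, and 0.0632 and 0.0491 for rho). With 9 liver genes, r was 0.34 and 0.47 (0.273 and 0.122, not past the threshold). The part of these tissues in the keratin levels was not tested by these correlations. The general epithelium list ran from 6.09 to 8.31 in ChREBPβ WT, 6.03 to 8.29 in ChREBPβ KO, 6.21 to 9.78 in total ChREBP WT, and 6.15 to 7.50 in its KO, with its highest value on total ChREBP WT replicate 2. On that array the epididymis and vas deferens list, of which 5 of 11 genes were in the table, was also highest, at 8.90.

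The genes most like each member were named by Pearson r over the 25 arrays among 17292 other genes, as a description. They were Crym, Krt7 and Gjb5 for Msln (0.90, 0.89 and 0.89), Bnc1, Crym and Tmem151a for Upk3b (0.94, 0.93 and 0.92), and Tmem151a, Serpinb1a and Gjb5 for Upk1b (0.94, 0.92 and 0.92). Lrrn4 was nearest to Tmem151a, Serpinb1a and Bnc1 (0.94, 0.91 and 0.91), and Gpm6a to Crym, Igfbp6 and Bnc1 (0.94, 0.92 and 0.91). Wt1 was nearest to Scn3b, Cdon and Crb2 (0.95, 0.91 and 0.90). For the keratins they were Rnf43, Wwc1 and Rnf128 for Krt8 (0.95, 0.95 and 0.93), Erbb3, Igsf5 and Rnf43 for Krt18 (0.97, 0.96 and 0.96), and Krt42, Fxyd3 and Ccdc92 for Krt19 (0.95, 0.88 and 0.87). Crym, Tmem151a and Bnc1 were each among the nearest genes of 3 of the first 6 members, and none of the nearest genes of a keratin was among those of the first 6. The mean of the 9 members was followed most closely by Cobl (0.92), Crym (0.89), Stk26 (0.87), Ildr2 (0.85), Rhpn2 (0.85), Il18 (0.84), Fgf1 (0.83), Fmod (0.83), Aebp1 (0.83) and Rspo1 (0.82).

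In ChREBPβ KO against ChREBPβ WT, 8 of the 9 members had a lower fitted mean and 0 passed the test, where 0% of all 40561 probes passed and 42% had a difference below 0. The fitted log2 difference was -0.76 for Krt18 (95% interval -1.79 to 0.28) and -0.64 for Krt8 (-1.63 to 0.35). It was -0.45 for Upk3b (-1.15 to 0.25), -0.37 for Lrrn4 (-1.01 to 0.27) and -0.32 for Msln (-0.96 to 0.33). Upk1b had -0.31, Gpm6a -0.26, Wt1 -0.21 and Krt19 0.07. The limma adjusted p was 0.70 to 0.977. Unadjusted, 0 members had a p under 0.05, against 9.02% of all probes. KO and WT overlapped for all 9 members, and were apart for 0.069% of all probes. Within wash batches 1 to 4, with 1 or 2 arrays of a group in each, the Msln difference was -1.38, 0.33, 0.95 and -0.39 and that of Upk3b -1.31, -0.61, 1.14 and -0.48, with both signs. Krt8 was below 0 in each batch (-0.20, -1.68, -1.24 and -0.06), and Krt18 was at -0.37, -2.21, -1.23 and 0.02. With the replicate number as a block, 5 of the 9 members (Msln, Upk3b, Upk1b, Wt1 and Lrrn4) had an unadjusted p under 0.05, against 9.51% of all probes, and 0 passed the adjusted threshold.

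Against its WT, total ChREBP KO had all 9 fitted differences below 0, as had 45% of all probes, and again 0 passed, against 8.79% of all probes called. Msln had the largest difference, -0.57 (SE 0.33, 95% interval -1.25 to 0.11, limma adjusted p 0.364). Krt8 had -0.54 (-1.58 to 0.50), Krt18 -0.50 (-1.59 to 0.59), Krt19 -0.37 (-1.04 to 0.30), Upk3b -0.27 (-1.01 to 0.46), Upk1b -0.23, Lrrn4 -0.21, Gpm6a -0.19 and Wt1 -0.06. The second Wt1 probe had -0.33 (-0.87 to 0.21). The limma adjusted p was 0.364 to 0.943, and 0 members had an unadjusted p under 0.05, against 20.3% of all probes. KO and WT again overlapped for all 9 members, and were apart for 6.8% of all probes. Within wash batches 1 to 4 the Msln difference was -1.26, 0.16, -0.65 and 0.0022, that of Krt8 0.20, -1.59, -0.18 and -0.71, and that of Krt18 0.14, -1.82, 0.60 and -1.08.

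Because the first 6 genes move together and so do Krt8 and Krt18, the shared sign of the members does not count as 9 separate observations. The mean level of the 9 members was 11.27 ± 0.22 (WT, SD, n = 7) and 10.93 ± 0.44 (KO, SD, n = 6) in the ChREBPβ line. It was 11.07 ± 0.33 (WT, SD, n = 7) and 10.74 ± 0.55 (KO, SD, n = 5) in the total ChREBP line. The median log2 difference of the members was -0.32 and -0.27 in the 2 lines, beside 0.02 and 0.02 over all probes. How far the KO effect differed between the lines was also fitted, and no member passed (0 called, against 3.21% of all probes, and 0 at an unadjusted p under 0.05, against 12.8%). It ran from -0.44 (Krt19) to 0.26 (Krt18), with limma adjusted p of 0.819 to 0.985.

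**Figure D5:**
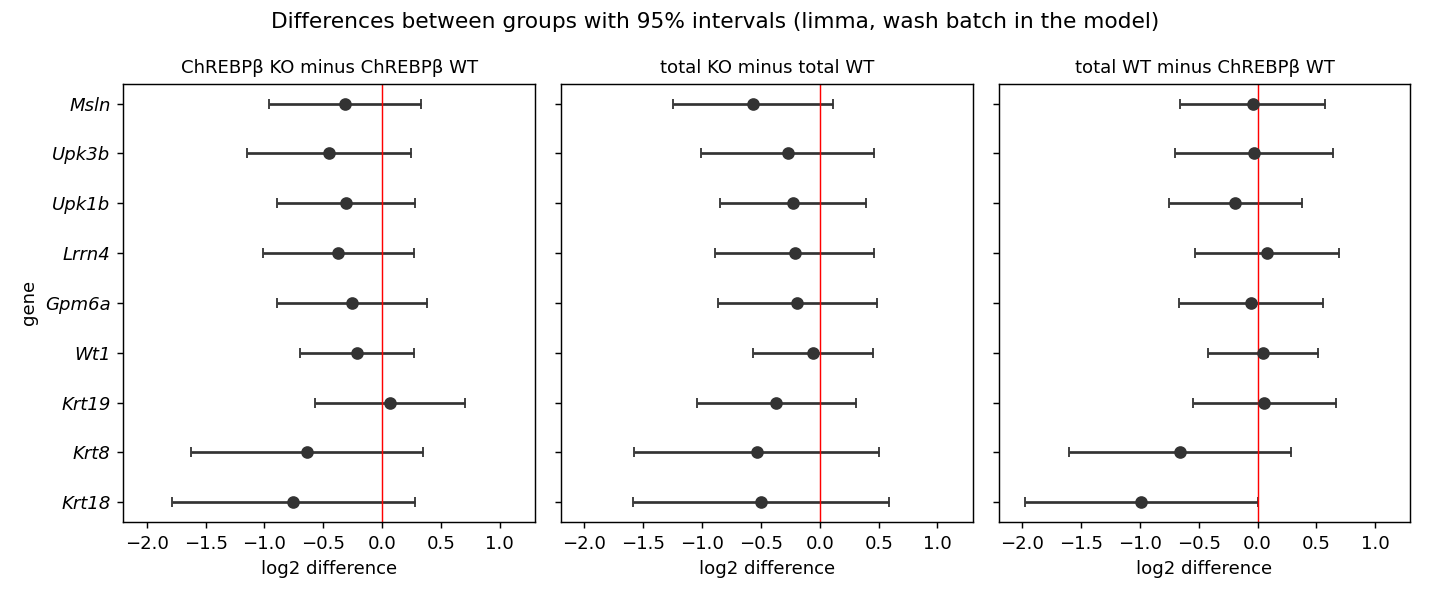
Fitted log2 difference (horizontal axis) with its 95% interval (bars) for each member (vertical axis) in the comparisons of ChREBPβ KO, total ChREBP KO and the wild types of both lines. Every interval spans 0, that of Krt18 between the wild types just so (-1.97 to 0.0019).

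Between the wild types of both lines, the first 6 genes and Krt19 differed by -0.19 to 0.08 on the log2 scale, while Krt18 was at -0.99 (SE 0.47, limma unadjusted p 0.0504, adjusted p 0.148) and Krt8 at -0.66 (SE 0.45, adjusted p 0.326) in total ChREBP WT. The second, dimmer Wt1 probe lay outside that range, at 0.44 (SE 0.24, limma adjusted p 0.196). Of all probes, 22% were called here and 0 members. At an unadjusted p under 0.05 it was 34% of all probes and 0 members. The groups overlapped for all members, and did not overlap for 5.06% of probes. Liver markers moved with this comparison. All 9 genes of the liver list, albumin and apolipoproteins among them, were lower in total ChREBP WT, with a median difference of -4.72 and a list mean of 14.40 (11.95 to 15.77) in ChREBPβ WT, 13.13 (10.54 to 15.13) in ChREBPβ KO, 9.53 (7.18 to 12.78) in total ChREBP WT, and 7.31 (6.92 to 7.87) in its KO. With the list mean in the model, an alternative chosen after seeing the data, the difference was 0.31 for Krt18 (SE 0.72) and 0.29 for Krt8 (SE 0.72, limma adjusted p 0.844 and 0.853). These SE were larger than without the list (0.47 and 0.45). Since the list mean itself differed between the lines, this fit cannot tell list and line apart.

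Other lists and 1 array changed the Krt18 call. With the general epithelium list in the model the difference between wild types was -1.33 for Krt18 (limma adjusted p 0.00452) and -0.98 for Krt8 (0.0223), so that 2 members were called. Without a list 22% of all probes were called in this comparison, and the share in the fits of this paragraph is not given here. With the epididymis and vas deferens list it was -1.90 for Krt18 (0.0179). Without total ChREBP WT replicate 2 it was -1.29 (0.0456). Within wash batches 1 to 4 it was -2.10, -1.05, -1.97 and 1.15, and that array lies in wash batch 4.

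Among the 16 other mesothelial genes, 0 were called in either knockout comparison, against 0% (ChREBPβ KO) and 8.79% (total ChREBP KO) of all probes. Below 0 were 13 in ChREBPβ KO (median -0.18) and 14 in total ChREBP KO (median -0.19), beside medians of 0.02 and 0.02 over all probes. Between the wild types 1 was called, against 22% of all probes. Efemp1, a matrix glycoprotein that fibroblasts also make, was lower by -0.56 in total ChREBP WT (limma adjusted p 0.0437), at 13.90 ± 0.30 (SD, n = 7) against 14.47 ± 0.21 (SD, n = 7) in ChREBPβ WT. Of 8 other uroplakins and simple keratins, 6 were measured. Upk3bl, a relative of Upk3b, fell by 0.33 in total ChREBP KO (adjusted p 0.0225) and its effect differed between the lines (-0.46, adjusted p 0.0434). Its levels were 5.23 ± 0.14 (WT, SD, n = 7) and 4.89 ± 0.08 (KO, SD, n = 5) in that line, near the dim end of the array. The other 5 genes of that list, Upk1a, Krt7, Krt20, Krt23 and Krt80, had 0 calls in these comparisons.

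The other lists give the make-up of the tissue beside these results. In total ChREBP KO, where 8.79% of all probes were called, 2 of 9 adipocyte genes were higher (Plin1 by 0.43 and Cidec by 0.39). There 1 of 10 progenitor genes, Ly6a, fell by 0.49. In that comparison 0 of 7 macrophage, 0 of 7 endothelial, 0 of 5 smooth muscle and 0 of 10 general epithelium genes were called, and 1 of 9 liver genes, Fgb, fell by 3.89. In ChREBPβ KO, 0 genes of all these lists were called, as were 0% of all probes. Between the wild types, where 22% of all probes were called, kidney genes also differed, with Kap lower by -4.88 and Slc34a1 by -1.53 in total ChREBP WT. The epididymal genes Adam7 (3.74) and Spag11b (1.52) were higher in that group. Adipocyte genes Lipe (0.50) and Retn (0.21) were higher and Lep (-0.83) lower, the progenitor gene Lum (0.45) was higher, and the pancreatic genes Cpa1 (-0.61) and Cela2a (-0.62) were lower in total ChREBP WT. The part of other tissues in the levels of the members was not tested beyond the fits named above. Testis genes ran to 12.09 on a single ChREBPβ WT array and to 10.19 and 9.96 in WT and KO of the total ChREBP line, and kidney genes to 9.87 in ChREBPβ WT.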

How the data were processed

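Per the labels and the file headers, the authors labelled RNA with Cy3, hybridised it to Agilent mouse arrays and extracted spot intensity values with Feature Extraction 10.10.1.1, and they deposited a table of log2 values, quantile-normalised between arrays and filtered on detection, for 40561 probes. Each column correlated with the log2 raw intensity of its array at 0.9998 or more. No background was subtracted. The table was used as deposited. All 25 arrays entered 1 limma model (3.58.1, R 4.3.3) of 4 groups and wash batch, with Benjamini-Hochberg adjustment over all 40561 probes and a threshold of 0.05. On simulated data with 200 probes changed by 1 log2 unit, 98.5% (ChREBPβ comparison) and 97.5% (total ChREBP comparison) were recovered. The changed probes were not drawn from the most variable ones. Between 91.1% and 97.5% of all probes had a lower SD than the members, so these shares do not tell how well a change in a member would be found. Correlations used group-centred values and 100000 permutations within groups (two-sided), adjusted over 36 pairs or 117 relations of members and lists. Samples were grouped by their labels, 1 array each, and litter or cage was not given. Members, lists and tests were chosen with earlier results of these data known. Named genes were the members, called list genes, and for each member the 3 other genes (for their mean, 10) of highest r. Alternatives were 3 other normalisations from raw intensities, a filter on dim probes, other models and covariates, the mean over probes, and leaving out each array. With 5 to 7 arrays a group, small differences could not be resolved.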

Additional observations from a re-analysis of the deposited data

How the results depend on the processing

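The count of 0 members called in ChREBPβ KO, total ChREBP KO and the difference of their effects was the same under every alternative run. Between the wild types it was 1 with the epididymis and vas deferens list as a covariate, 2 with the general epithelium list, and 0 to 1 over the fits that left out 1 array, with the call at total ChREBP WT replicate 2. Without these changes 22% of all probes were called in that comparison. The share under these alternatives is not given here. Without 1 array each, the Krt18 difference between wild types ran from -1.29 to -0.74. Among the KO differences and those of Krt8 and Krt18 between wild types, 16 of 760 values changed sign, none of them called before or after. Wt1 in total ChREBP KO was 0.066 with the replicate block, 0.022 with array quality weights, 0.069 with the epididymis list and -0.15 to 0.063 without 1 array each. Gpm6a in ChREBPβ KO was 0.058 with array weights. In total ChREBP KO, Krt8 was 0.021 and Krt18 0.21 with the epididymis list, and Krt18 0.078 with the liver list. Between wild types, Krt8 was 0.29 and Krt18 0.31 with the liver list. Krt19 in ChREBPβ KO was -0.16 with the liver list and -0.13 to 0.34 without 1 array each. Among the differences of effects and the other wild type differences, 70 of 599 values changed sign and 0 were called, and the Krt18 difference of effects ran from -0.072 to 1.08. The cause was not tested. Whether replicate numbers pair the samples is not known. Deviations of same-numbered arrays correlated at -0.29 to 0.25 between a KO and its WT, and at up to 0.40 between the wild types. Differently numbered arrays were not set beside them, so these values cannot decide it. With the replicate block the count of members called was 0 in each comparison, with 5 of 9 at an unadjusted p under 0.05 in ChREBPβ KO, against 9.51% of all probes. The number of correlated pairs of members was 16 under 3 other normalisations, 14 with the mean over the probes of a gene (the pairs of Wt1 with Msln, 0.56, and Gpm6a, 0.56, were lost) and 15 to 21 without 1 array each, 15 without ChREBPβ KO replicate 5, where Msln and Wt1 (0.52) were lost. Without all ChREBPβ KO arrays, an alternative chosen after seeing the data, it was 16, where the pair of Krt8 and Krt19 (0.60) passed and that of Msln and Wt1 did not. Without 1 array each, the mean level of the members differed by -0.46 to -0.24 in ChREBPβ KO, -0.48 to -0.14 in total ChREBP KO and -0.28 to -0.13 between wild types.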
